A study of Mus musculus with 6 samples.

Results

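The cytochrome P450 genes were followed in tumours of mice on a normal diet (ND, 3 tumours) or a high cholesterol diet (HCD, 3 tumours). The members were all genes of the expression table whose symbol is Cyp followed by a family number, a subfamily letter and a gene number, which gave 94 of the 34745 genes listed. All 6 tumours came from cells of B16F10, a mouse melanoma line by the labels, injected subcutaneously in the right flank of C57BL/6J mice. No age or sex of the mice, length of the diet, or rule for calling samples replicates is given in the labels, so the p-values measure the spread between these 6 samples, which may be technical. Library totals ran from 20351637 to 26228074 counts. The pigment cell label was not borne out by its markers. Of 9 listed genes 0 reached a mean of 1 FPKM, and Tyr, Dct, Mlana and Oca2 had 0 counts in every library. That mean was reached by 7 of 12 hepatocyte genes, and also by 10 of 10 macrophage, 9 of 10 fibroblast and 2 of 8 adipocyte genes. FPKM is a count divided by the gene's length and the total of its library, and levels of different genes are compared on that scale.

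P450 enzymes are haem proteins that insert 1 oxygen atom from molecular oxygen into lipids, steroids and foreign compounds. Most sit in the endoplasmic reticulum and take electrons from the reductase Por, and a few sit in mitochondria and take them from the ferredoxin Fdx1. The liver holds the widest set, where Cyp2 and Cyp3 enzymes clear drugs and toxins and Cyp7a1, Cyp8b1 and Cyp27a1 turn cholesterol into bile acids, while the adrenal and gonads use others to make steroid hormones.

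A minority of the family was expressed, taken as a mean of at least 1 FPKM over the 6 libraries. Of the 94 genes, 16 reached that level, which is 17% of the family against 34.1% of all listed genes, and 5 of them had a mean of at least 10 FPKM. A further 6 had enough counts to be tested but a mean under 1 FPKM, so 22 were tested between the diets, 23.4% of the family against 44.7% of all genes. There were 18 genes with 10 or more counts in all that fell below the test's filter on low counts, 24 with 1 to 9 counts in all, and 30 with 0 counts in every library. The last are 31.9% of the family, close to the 28.6% of all listed genes at 0. A count of 0 in all 6 libraries allows a level of up to 0.0228 CPM (counts scaled to a common library total; 3 counts of the 131411022 in the 6 libraries), which covers counting error only. The highest mean among the untested members was 0.220 FPKM, that of Cyp2t4.

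**Figure D1:**
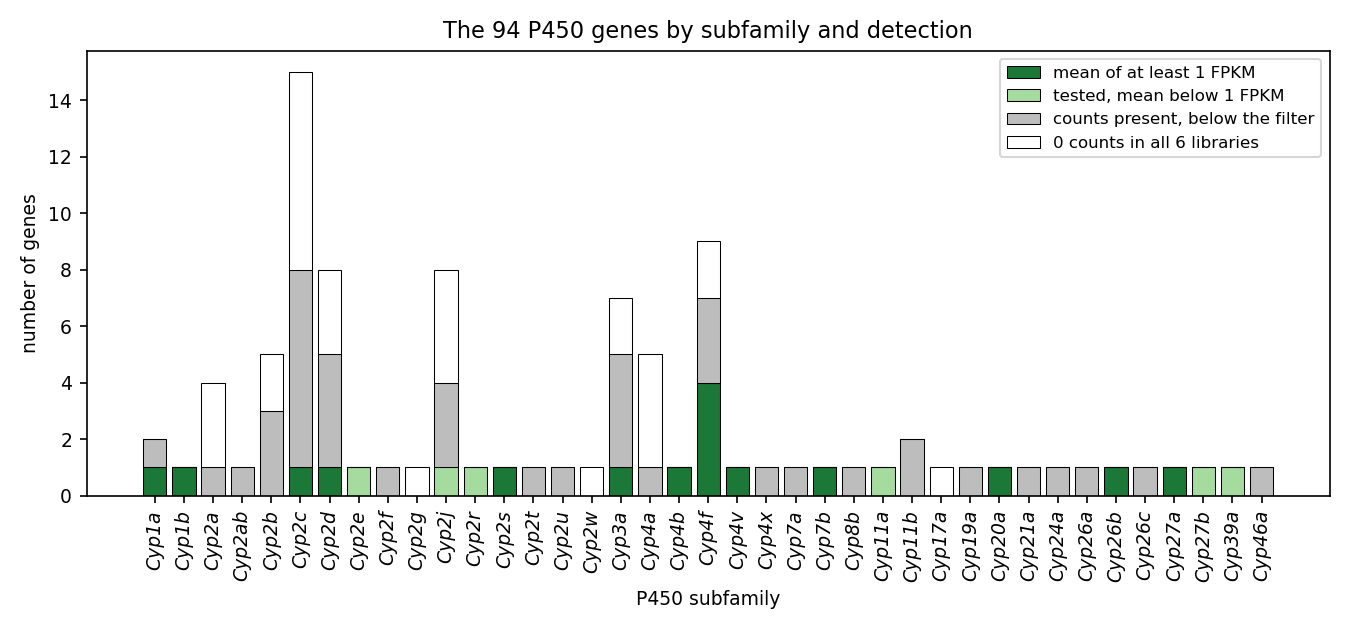
Number of P450 genes in each subfamily (x axis), split by detection: mean of at least 1 FPKM (dark green), tested with a lower mean (light green), counts present but below the filter (grey) and 0 counts in all 6 libraries (white). The Cyp2c subfamily has 15 members, of which 1 reaches 1 FPKM, and Cyp4f is the subfamily with the most such members, 4 of 9.

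Most of the genes at 0 counts, 28 of 30, lay in the large gene clusters. Members less than 500000 bases from the next one were taken as a cluster (GENCODE M21, mm10/GRCm38), which gave 7 clusters of at least 6 genes with 64 members in all. In these clusters 7 of 64 members had a mean of at least 1 FPKM and 28 had 0 counts, while among the 23 members alone at their locus 8 reached 1 FPKM and 2 had 0 counts. The Cyp2c cluster on chromosome 19 (39007019 to 40187333), which in liver holds abundant drug-metabolising enzymes, had 14 members, of which Cyp2c68 was expressed and 7 had 0 counts. The cluster of Cyp2a, Cyp2b and related genes on chromosome 7 (25802475 to 27158668) had 13 members, of which Cyp2s1, at its edge, was expressed and 6 had 0 counts. The Cyp3a cluster on chromosome 5 (145345279 to 146113287) had 6 members, none at 1 FPKM, while Cyp3a13, which lies apart on the same chromosome (137892932 to 137921619), was among the most abundant genes of the family. In the Cyp4f cluster on chromosome 17 (32452723 to 32947402) 3 of 8 members were expressed. For the 28 clustered members at 0 counts, 0.127% (Cyp2j13) to 54.3% (Cyp2c69) of 50-base transcript windows also occur in another gene. The handling of reads that match several genes is not given, so 0 counts there do not show a gene to be silent.

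Promoter sequences are shown for genes whose level differed sharply from that of a neighbour and for Cyp27a1 and Cyp2c68, which had an unadjusted p under 0.05 between the diets. They come from RefSeq (GRCm38.p6), run from 250 bases before to 50 bases after the annotated start, 5′ to 3′ on the gene's own strand, and were matched for 73 of the 94 members. Capitals mark GCGTG, the core that the aryl hydrocarbon receptor (AhR) binds on either strand, and the TATA box TATAAA.
Cyp1a1 (chr9:57697363-57697662, + strand): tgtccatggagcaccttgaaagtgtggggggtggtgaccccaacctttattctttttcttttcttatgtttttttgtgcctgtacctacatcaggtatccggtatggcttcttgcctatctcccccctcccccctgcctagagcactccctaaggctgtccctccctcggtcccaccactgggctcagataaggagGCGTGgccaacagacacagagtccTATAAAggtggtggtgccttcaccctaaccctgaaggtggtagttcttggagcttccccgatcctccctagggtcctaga
Cyp1a2 (chr9:57683606-57683905, - strand): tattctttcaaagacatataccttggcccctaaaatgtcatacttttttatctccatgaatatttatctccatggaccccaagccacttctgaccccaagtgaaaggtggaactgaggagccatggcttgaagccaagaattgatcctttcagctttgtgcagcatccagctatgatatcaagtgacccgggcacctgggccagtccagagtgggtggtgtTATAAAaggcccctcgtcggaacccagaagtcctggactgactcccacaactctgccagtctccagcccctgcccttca
Cyp2s1 (chr7:25816476-25816775, - strand): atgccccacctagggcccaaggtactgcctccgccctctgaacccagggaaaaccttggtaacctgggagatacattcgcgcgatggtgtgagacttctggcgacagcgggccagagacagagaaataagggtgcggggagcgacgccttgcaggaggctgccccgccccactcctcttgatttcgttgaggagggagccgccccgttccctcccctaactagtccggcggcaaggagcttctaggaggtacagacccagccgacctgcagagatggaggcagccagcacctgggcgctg
Cyp27a1 (chr1:74713285-74713584, + strand): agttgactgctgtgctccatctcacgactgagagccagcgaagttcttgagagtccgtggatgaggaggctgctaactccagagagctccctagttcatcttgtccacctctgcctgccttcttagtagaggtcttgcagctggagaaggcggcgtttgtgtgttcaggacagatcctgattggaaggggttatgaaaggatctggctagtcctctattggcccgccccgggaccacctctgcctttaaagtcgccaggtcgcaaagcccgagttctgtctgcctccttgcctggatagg
Cyp2c68 (chr19:39741052-39741351, - strand): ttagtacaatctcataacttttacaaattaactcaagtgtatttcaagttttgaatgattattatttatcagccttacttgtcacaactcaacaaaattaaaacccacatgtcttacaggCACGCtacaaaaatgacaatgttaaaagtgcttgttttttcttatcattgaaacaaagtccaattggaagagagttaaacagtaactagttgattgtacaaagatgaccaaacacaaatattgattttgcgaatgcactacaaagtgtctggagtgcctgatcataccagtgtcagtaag
Cyp2c67 (chr19:39648993-39649292, - strand): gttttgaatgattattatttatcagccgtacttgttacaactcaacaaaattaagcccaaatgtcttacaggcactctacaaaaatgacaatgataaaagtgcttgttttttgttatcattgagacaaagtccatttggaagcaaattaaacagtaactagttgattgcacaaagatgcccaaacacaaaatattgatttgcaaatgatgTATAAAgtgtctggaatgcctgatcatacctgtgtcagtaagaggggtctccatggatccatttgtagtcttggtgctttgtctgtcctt

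Cyp1a1 and Cyp1a2 are neighbours on chromosome 9 transcribed away from each other, and both promoters held TATAAA, 30 and 29 bases before the start, though their levels differed widely. GCGTG was found once for Cyp1a1, 54 bases before the start, and not for Cyp1a2. GCGTG on either strand was in 32.4% of all 32851 promoters in the table, and the longer form TNGCGTG, found in 5.07% of all promoters, was in that of Cyp2c68 alone of the 6 shown, where the match lies on the other strand, 130 bases before the start. The promoters of Cyp2c68 and Cyp2c67 were 91.6% identical over 251 aligned bases, and TATAAA was found for Cyp2c67 and not for Cyp2c68. Starts here are those of RefSeq and can differ from the GENCODE gene spans. For Cyp2c68 and Cyp27a1 the last 30 bases of the window were not found in a GENCODE transcript of the gene. The Cyp1a1 window lies inside that gene's GENCODE span. A match in such a window is a description and not a binding site.

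Over the members with a matched promoter, the expressed ones had the higher median CpG content. The 13 promoters of 13 members with a mean of at least 1 FPKM had a median CpG ratio (observed over expected from base composition) of 0.278. The 70 promoters of 60 other members had 0.140, and all listed promoters 0.384. Genes with several promoters, such as Cyp4f14 and Cyp19a1, entered once per promoter, and some of these windows overlap. The ratio was above 0.6 for 3 of the 13 and for 3 of the 70. GCGTG was in 6 of the 13 (46.2%) and in 11 of the 70 (15.7%); the motif itself holds a CpG. TATAAA was in 2 of the 13 (15.4%), in 22 of the 70 (31.4%) and in 8.32% of all promoters. The expressed members Cyp7b1, Cyp4f17 and Cyp2d22 are not among the matched ones. Members of 1 cluster share ancestry and sequence, so these counts are descriptions with no test.

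**Figure D2:**
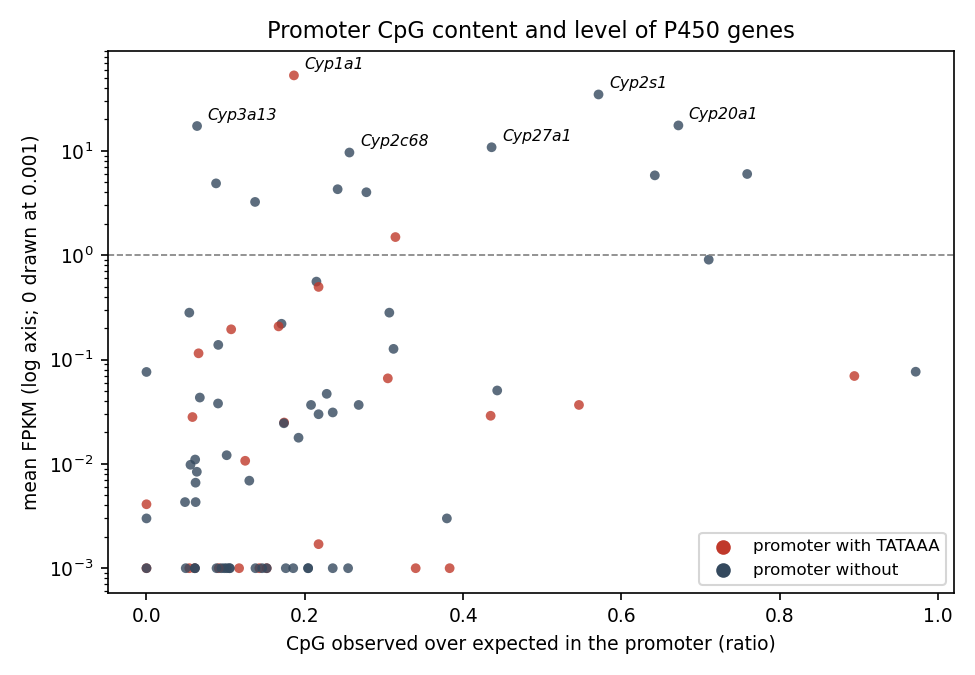
Mean FPKM over 6 libraries (y axis, log scale, 0 drawn at 0.001) against the CpG observed over expected ratio of each promoter (x axis), 1 point per promoter of 73 members, red where it holds TATAAA. Cyp1a1 has the highest level at a ratio of 0.186, and Cyp2s1 and Cyp20a1 combine high levels with ratios of 0.571 and 0.672.

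The genes for oxidation of foreign compounds were led by Cyp1a1, an enzyme of polycyclic aromatic hydrocarbons that the AhR induces (ENSMUSG00000032315, chromosome 9, 57687928 to 57703824). Its level was 46.0, 55.5 and 47.3 FPKM in ND 1 to ND 3 and 39.2, 56.7 and 72.5 FPKM in HCD 1 to HCD 3. By FPKM it was the most abundant member in all 6 libraries, and its highest and its lowest value were both in tumours fed HCD. On the log2 scale, HCD over ND was 0.17 ± 0.22 SE (95% interval -0.34 to 0.69), and without HCD 3 it was -0.08. Its neighbour Cyp1a2, a main P450 of adult liver, had 51 counts in all and at most 0.436 FPKM. Cyp1b1, which oxidises the same hydrocarbons and oestradiol, had 4.99, 4.13 and 8.66 FPKM in ND and 5.88, 7.77 and 3.51 FPKM in HCD tumours, so that the diets overlapped. The log2 fold change between diets was -0.07 ± 0.35 SE and was positive without ND 3 (0.30) or without HCD 3 (0.18).

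Cyp2s1, an epithelial P450 that is also induced through the AhR (ENSMUSG00000040703, chromosome 7, 25802475 to 25816913), was next, with 40.2, 31.3 and 34.2 FPKM in ND and 26.6, 35.0 and 41.0 FPKM in HCD tumours. By FPKM it lay below Cyp1a1 in every library, and the ranges of the 2 genes over the libraries overlapped. By counts, which are not divided by length, Cyp2s1 lay above in every library, with 31684 against 18219 in all. The order of the pair thus rests on the gene lengths behind the deposited FPKM. HCD over ND gave a log2 fold change of -0.06 ± 0.18 SE, which was positive without ND 1 (0.06) or without HCD 1 (0.11). Part of its exons overlaps Gm26707 on the opposite strand, and whether the counting used strand is not given in the sources used here. Together Cyp1a1 and Cyp2s1 made up 39.7% to 53.1% of the summed FPKM of the 94 members. That sum was 177, 186 and 190 FPKM in ND and 166, 202 and 214 FPKM in HCD tumours (184 ± 6.98 against 194 ± 25.0, SD, n = 3 each), so the HCD tumours held both extremes.

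Of the AhR itself and the receptors that induce other P450 genes, Ahr had 23.4, 23.1 and 26.6 FPKM in ND and 19.0, 21.6 and 19.0 FPKM in HCD tumours. All 3 HCD values lay below all 3 ND values, with a log2 fold change of -0.31 ± 0.08 SE and an unadjusted edgeR p of 0.00798, which adjusted to 0.839. Hnf4a, a hepatocyte transcription factor gene, had 23.1 ± 4.45 against 17.9 ± 0.949 FPKM (SD, n = 3 each; edgeR unadjusted p = 0.0384, adjusted p = 0.839), and Foxa2 27.7 ± 2.95 against 26.9 ± 3.10 FPKM. The genes of the drug receptors were at or near 0: Nr1i2 (the pregnane receptor PXR) had 0 counts in all libraries and Nr1i3 (CAR) 46 counts in all. Over the list of 24 receptors and factors, 20 were tested and 0 passed in either direction. Their fold changes were positive for 8 and negative for 12, with a median log2 fold change of -0.06 against 0.01 over all tested genes.

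Cyp20a1, a P450 of unknown substrate, had 17.7, 17.5 and 17.3 FPKM in ND and 17.8, 18.8 and 16.1 FPKM in HCD tumours. It was among the steadiest members, with a coefficient of variation of 5.08% over the 6 libraries against a median of 21.9% over the 22 tested members. Its log2 fold change was -0.01, with a 95% interval of -0.20 to 0.18, and its sign depended on the scaling (0.00331 on log2(FPKM + 1)). Cyp3a13, a Cyp3a enzyme of liver and intestine (ENSMUSG00000029727), had 17.3, 20.3 and 20.6 FPKM in ND and 10.7, 17.7 and 17.2 FPKM in HCD tumours, with HCD 1 the lowest. Cyp20a1 exceeded Cyp3a13 in 3 of 6 libraries, so the order of the pair is not set. The log2 fold change of Cyp3a13 was -0.36 ± 0.20 SE (95% interval -0.83 to 0.10), and -0.15 without HCD 1. The diets separated, HCD lower, on scaled counts but not on FPKM, where HCD 2 exceeded ND 1.

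Cyp2c68 had 7.28, 7.76 and 9.06 FPKM in ND and 12.8, 9.26 and 11.6 FPKM in HCD tumours (ENSMUSG00000074882, chromosome 19, 39688834 to 39741054). All 3 HCD values lay above all 3 ND values, though ND 3 and HCD 2 were close. Its log2 fold change was 0.47 ± 0.15 SE (95% interval 0.11 to 0.83), with an unadjusted edgeR p of 0.0173 that adjusted to 0.839. That unadjusted p rose above 0.05 on leaving out ND 1 (0.0552), ND 2 (0.0538), HCD 1 (0.0639) or HCD 3 (0.0548). Reads can be hard to assign in this cluster: 43.3% of the 50-base windows of Cyp2c68 transcripts also occur in a transcript of another gene, most often Cyp2c40, which had 12 counts in all. The close copy Cyp2c67, whose promoter is shown above, had 43 counts in all and at most 0.308 FPKM. How reads that match several genes were counted is not given in the sources used here, so the level of Cyp2c68 is uncertain. Of the 22 tested members, 9 had no such shared window, and Cyp2c68 and Cyp4f16 were the 2 with more than 10% of windows shared.

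Among other members that clear foreign compounds, those that dominate adult liver were close to 0. Cyp2e1, which oxidises ethanol, had a mean of 0.496 FPKM, Cyp2f2 had 22 counts in all, Cyp3a11 7 counts, Cyp2c29 1 count, and Cyp2a5 and Cyp2c50 0 counts in every library. Cyp2e1 was the most uneven of the tested members, with a coefficient of variation of 75.5%. It had 0.215, 0.835 and 0.265 FPKM in ND and 1.02, 0.563 and 0.0785 FPKM in HCD tumours. Its 3 high libraries, ND 2, HCD 1 and HCD 2, were also the 3 with the highest summed level of the 8 adipocyte markers, at 16.1, 19.0 and 24.6 FPKM, against 5.73 to 9.17 FPKM in the other 3. Of those 8 markers 0 were at 0 counts in all libraries, and 2 reached a mean of 1 FPKM. The macrophage and B cell sums were also highest in ND 2, HCD 1 and HCD 2. For B cells they were 161, 212 and 217 FPKM, against 31.8 to 82.6 FPKM in the other 3. The T cell, mast cell and endothelial sums had another order. The part of fat tissue or of these cells in the level of Cyp2e1 was not tested. Skeletal muscle markers summed to 691 FPKM in ND 2, 826 FPKM in HCD 1 and 83.9 FPKM in HCD 2. They summed to 5.17 to 11.95 FPKM in the other 3 libraries. ND 2, HCD 1 and HCD 2 thus held the highest sums of both the adipocyte and the muscle list. The part of muscle in the level of Cyp2e1 was not tested either. Cyp2d22 had a mean of 1.18 FPKM and Cyp2j6 of 0.558 FPKM, with log2 fold changes of -0.09 ± 0.31 SE and 0.54 ± 0.31 SE. For Cyp2j6 it ran from 0.34 without ND 2 to 0.83 without ND 1, where the unadjusted edgeR p was 0.0357.

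The P450 genes that act on cholesterol and its products were split. The classic route of bile acid synthesis, which starts in the liver with Cyp7a1 and uses Cyp8b1 to make cholic acid, was at the floor: Cyp7a1 had 2 counts in all, and Cyp8b1 had 0, 1 and 1 counts in ND and 4, 10 and 0 counts in HCD tumours. Cyp27a1 of the alternative route and Cyp7b1, which acts on oxysterols, were expressed, and the other 4 genes of the group had means under 1 FPKM. Of the 6 genes of the group, Cyp27a1, Cyp7b1 and Cyp39a1 were tested, all 3 with a positive fold change and 0 past the threshold, with a median log2 fold change of 0.27 against 0.01 over all tested genes.

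Cyp27a1, the mitochondrial enzyme that hydroxylates the cholesterol side chain and opens the alternative route (ENSMUSG00000026170, chromosome 1, 74713574 to 74737892), had 8.23, 10.1 and 10.6 FPKM in ND and 11.7, 12.1 and 12.3 FPKM in HCD tumours. Every HCD tumour lay above every ND tumour, and the HCD values were close together (9.64 ± 1.24 against 12.01 ± 0.321 FPKM, SD, n = 3 each). Its log2 fold change was 0.31 ± 0.11 SE (95% interval 0.05 to 0.56), with an unadjusted edgeR p of 0.0244 that adjusted to 0.839. Leaving out ND 1 gave an unadjusted p of 0.0577 and leaving out HCD 3 one of 0.0718, and the log2 fold change ran from 0.21 to 0.37 over the fits without 1 library. No 50-base window of its transcripts occurs in another gene. Macrophages also express this gene. Their 10 markers, all at 1 FPKM or more, summed to 274, 625 and 515 FPKM in ND and 614, 1024 and 433 FPKM in HCD tumours, lowest in ND 1 like Cyp27a1 but not highest in HCD 3, and their part in the difference was not tested.

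Cyp7b1, which hydroxylates the oxysterols that Cyp27a1 makes, had 5.07, 3.41 and 3.54 FPKM in ND and 5.63, 3.57 and 4.75 FPKM in HCD tumours. The diets overlapped, with ND 1 above 2 of the HCD tumours, and the log2 fold change was 0.20 ± 0.24 SE (0.06 without HCD 1, 0.42 without ND 1). Cyp39a1, another oxysterol hydroxylase, had 1.03, 0.699 and 0.889 FPKM in ND and 1.21, 0.866 and 1.11 FPKM in HCD tumours (log2 fold change 0.27 ± 0.26 SE, from 0.13 without ND 2 to 0.42 without ND 1). Cyp46a1, the cholesterol hydroxylase of neurons, had 22 counts in all. The steps after these hydroxylations had a gap: Hsd3b7, which acts next on the sterol ring in both routes, had 0 counts in every library, and Akr1d1, the bile acid reductase, had 1 count in all. Of the 13 other bile acid genes 8 were tested, 7 with a positive and 1 with a negative fold change, and 0 passed. The peroxisomal genes Amacr, Scp2 and Hsd17b4 were the most abundant of them, at 24.6 ± 5.04, 14.5 ± 1.10 and 13.9 ± 1.07 FPKM in ND and 28.3 ± 10.2, 16.0 ± 1.49 and 14.7 ± 1.19 FPKM in HCD tumours (SD, n = 3 each). Akr1c6, a hydroxysteroid dehydrogenase gene, was low, with 0.113 ± 0.0846 against 0.346 ± 0.0408 FPKM (edgeR unadjusted p = 0.0316, adjusted p = 0.839).

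**Figure D3:**
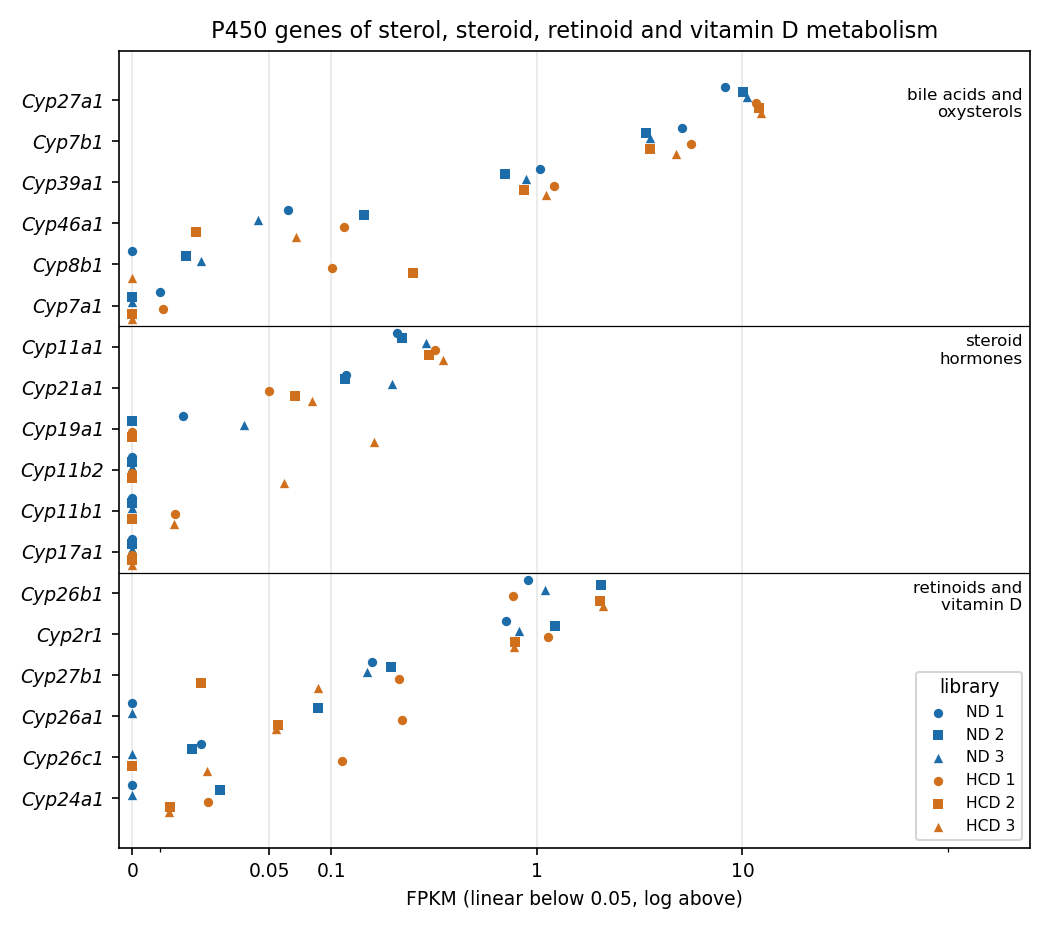
FPKM (x axis, linear below 0.05 and log above) of 18 P450 genes of bile acid and oxysterol, steroid hormone, and retinoid and vitamin D metabolism in each library, blue for ND and orange for HCD tumours, with the symbol giving the tumour number. Cyp27a1 is the highest, with the HCD tumours at 11.7 to 12.3 FPKM above the ND tumours at 8.23 to 10.6 FPKM, and Cyp7a1 and Cyp17a1 are at or near 0.

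The P450 genes of steroid hormone synthesis were near the floor. Cyp11a1, which cuts the side chain of cholesterol in mitochondria to begin that pathway, was the one gene of 6 that was tested, with 28, 34 and 35 counts in ND and 38, 36 and 43 counts in HCD tumours. Its level was 0.209, 0.221 and 0.289 FPKM in ND and 0.318, 0.300 and 0.350 FPKM in HCD tumours, with all HCD values above all ND values, a log2 fold change of 0.42 ± 0.26 SE and an interval of -0.19 to 1.03. Its exons overlap those of Gm17322 on the same strand. Cyp17a1, needed for androgens, had 0 counts in all libraries. The aromatase Cyp19a1 had 11 counts in all, of which 8 were in HCD 3, and Cyp11b1 and Cyp11b2 had 2 counts each. Cyp21a1 had 8, 9 and 12 counts in ND and 3, 4 and 5 counts in HCD tumours, too few to be tested. It shares 21.3% of its windows with other genes, most with the pseudogene Cyp21a2-ps, and overlaps Tnxa on the opposite strand.

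Of 15 other steroid genes, 8 were tested and 0 passed, 6 with a positive and 2 with a negative fold change. The mitochondrial translocator gene Tspo had 83.7 ± 5.83 against 84.5 ± 3.83 FPKM, the epoxide hydrolase gene Ephx1 69.3 ± 12.9 against 81.4 ± 18.0 FPKM and the related gene Ephx2 7.195 ± 2.30 against 6.56 ± 0.894 FPKM (ND against HCD, SD, n = 3 each). Star, which delivers cholesterol to Cyp11a1, had 0.910 to 1.37 FPKM in ND and 1.26 to 1.48 FPKM in HCD tumours. Hsd3b1, which acts on the product of Cyp11a1, had 5 counts in all.

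For retinoids, Cyp26b1, which breaks down retinoic acid, had 0.905, 2.06 and 1.10 FPKM in ND and 0.763, 2.02 and 2.10 FPKM in HCD tumours. Each diet held both low and high tumours, and the log2 fold change was 0.26 ± 0.45 SE, running from 0.01 without HCD 3 to 0.69 without ND 2. Its relatives Cyp26a1 and Cyp26c1 had 16 and 7 counts in all. For vitamin D, Cyp2r1, which makes the circulating form, had 0.711 to 1.22 FPKM in ND and 0.777 to 1.13 FPKM in HCD tumours, and Cyp24a1, which inactivates the hormone, had 7 counts in all. Cyp27b1, which activates it, had 0.157, 0.196 and 0.150 FPKM in ND and 0.215, 0.0252 and 0.0860 FPKM in HCD tumours, with a log2 fold change of -0.64 ± 0.64 SE, which ran from -1.56 without HCD 1 to -0.17 without HCD 2. Of these 6 genes 3 were tested, 1 with a positive and 2 with a negative fold change, and 0 passed.

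Fatty acid hydroxylases of the Cyp4 family gave the highest number of expressed members of any family, 6 of 17, a share close to the 34.1% of all listed genes. Cyp4v3, a fatty acid hydroxylase gene whose human counterpart is mutated in a retinal dystrophy, had 5.29, 5.46 and 5.95 FPKM in ND and 7.11, 6.57 and 5.62 FPKM in HCD tumours, with HCD 3 inside the ND range (log2 fold change 0.19 ± 0.10 SE). Its exons overlap those of Gm45753 on the same strand. Cyp4f13, Cyp4f16 and Cyp4f17, neighbours on chromosome 17 that act on long fatty acids and leukotrienes, had means of 4.01, 4.88 and 5.65 FPKM and log2 fold changes of -0.05 ± 0.09, -0.17 ± 0.11 and -0.22 ± 0.15 (SE). Cyp4f13 was the steadiest tested member, between 3.85 and 4.196 FPKM in every library. Cyp4f39 of the same cluster had 0 counts in ND and 2, 3 and 5 counts in HCD tumours, and was too low to be tested. Against a floor of 3 counts over the ND group the HCD level was 3.77-fold higher. That value leaves out the counting error of the HCD counts and is no lower limit. The liver genes of fatty acid oxidation Cyp4a10 and Cyp4a14 had 0 counts in all libraries, as did Cyp4f14 and Cyp4f15.

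Cyp4f18, which inactivates leukotriene B in neutrophils, had 2.12, 3.63 and 3.88 FPKM in ND and 3.31, 4.14 and 2.36 FPKM in HCD tumours, low in ND 1 and HCD 3. It overlaps Zfp961 on the opposite strand. The log2 fold change was 0.01 ± 0.29 SE and was negative without ND 1 (-0.20) or without HCD 2 (-0.18). The 10 neutrophil markers summed to 121, 53.9 and 119 FPKM in ND and 50.9 to 53.3 FPKM in HCD tumours, a different order. The macrophage sums given above were also lowest in ND 1 and HCD 3. So were the T cell, B cell, endothelial and skeletal muscle sums. The part of any of these cell types in the level of Cyp4f18 was not tested. Cyp4b1, an enzyme of lung and bladder that acts on fatty acids and toxins, had 1.78, 3.83 and 5.29 FPKM in ND and 3.71, 7.30 and 3.82 FPKM in HCD tumours. The log2 fold change was 0.43 ± 0.42 SE and ran from 0.06 (without HCD 2) to 0.80 (without ND 3). ND 1 was the lowest and HCD 2 the highest library, as for the summed markers of several cell types: 43.1 and 89.1 FPKM for endothelial cells, 274 and 1024 FPKM for macrophages, 33.1 and 104 FPKM for T cells and 18.6 and 153 FPKM for mast cells. The part of these cells in the level was not tested. In such bulk tissue, fewer cells of a type and less RNA per cell cannot be told apart.

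**Figure D4:**
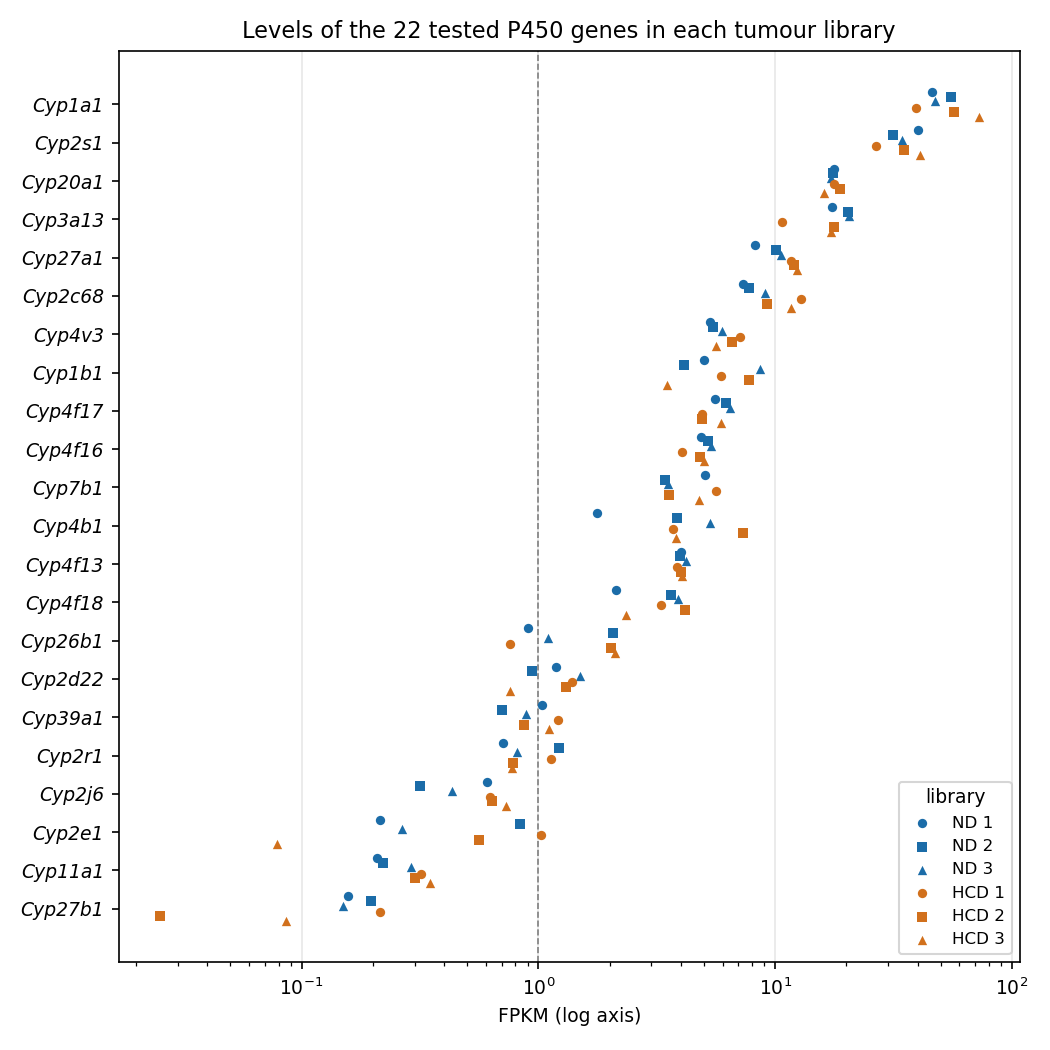
FPKM (x axis, log scale) of the 22 tested P450 genes in each library, ordered by mean, blue for ND and orange for HCD tumours, with the symbol giving the tumour number and a dashed line at 1 FPKM. Cyp1a1 and Cyp2s1 stand at the top, Cyp20a1 and Cyp4f13 have nearly the same level in all 6 libraries, and Cyp2e1 has the widest spread for its level, from 0.0785 to 1.02 FPKM.

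The levels of the 16 expressed members were separated from those of the next gene at 3 places. Between Cyp2s1 and Cyp20a1, between Cyp2c68 (9.64 FPKM) and Cyp4v3 (6.00 FPKM), and between Cyp4f18 (3.24 FPKM) and Cyp26b1 (1.49 FPKM) the ranges over the 6 libraries did not overlap. The ranges of all other neighbours overlapped, though by FPKM Cyp1a1 lay above Cyp2s1 and Cyp4f17 above Cyp4f16 within each of the 6 libraries.

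The comparison of the diets asked which P450 genes of the tumour differed between HCD and ND. By edgeR's quasi-likelihood test 0 of 22 members passed the adjusted threshold of 0.05 in either direction, as did 0% of the 15539 tested genes. The smallest adjusted p among the members was 0.839 by edgeR and 0.587 by the DESeq2 Wald test. The DESeq2 test also called 0 members (and 6 genes, all lower, or 0.0576% of those it adjusted), and limma-voom called 0. DESeq2 gave no adjusted p for Cyp2d22, Cyp39a1, Cyp2r1, Cyp2j6, Cyp2e1, Cyp11a1 and Cyp27b1, so its result does not cover them. At an unadjusted p under 0.05 there were 2 members, Cyp27a1 and Cyp2c68, both higher in HCD tumours, where 1.81% of all tested genes were higher, 3.48% lower and 5.3% either at that level. The count of 2 was not tested against those shares, and no result on the family is read from it. Of the 22 members, 12 had a positive and 10 a negative log2 fold change, with a median of 0.09 and a range from -0.64 (Cyp27b1) to 0.54 (Cyp2j6), against a median of 0.01 over all tested genes. The 95% interval included 0 for 20 of 22.

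On counts scaled for library size (CPM with TMM factors), the diets separated with HCD higher for 3 of the 22 members (Cyp27a1, Cyp2c68 and Cyp11a1), where 4.74% of all tested genes did so, and with HCD lower for 1 (Cyp3a13), where 6.36% did. On the deposited FPKM the first set was Cyp27a1, Cyp2c68, Cyp11a1 and Cyp2j6, against 5.72% of tested genes, and the second was empty, against 6.04%. Among untested members with at least 10 counts in all, Cyp4f39 lay above and Cyp21a1 below, where 3.99% and 5.99% of such genes did.

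**Figure D5:**
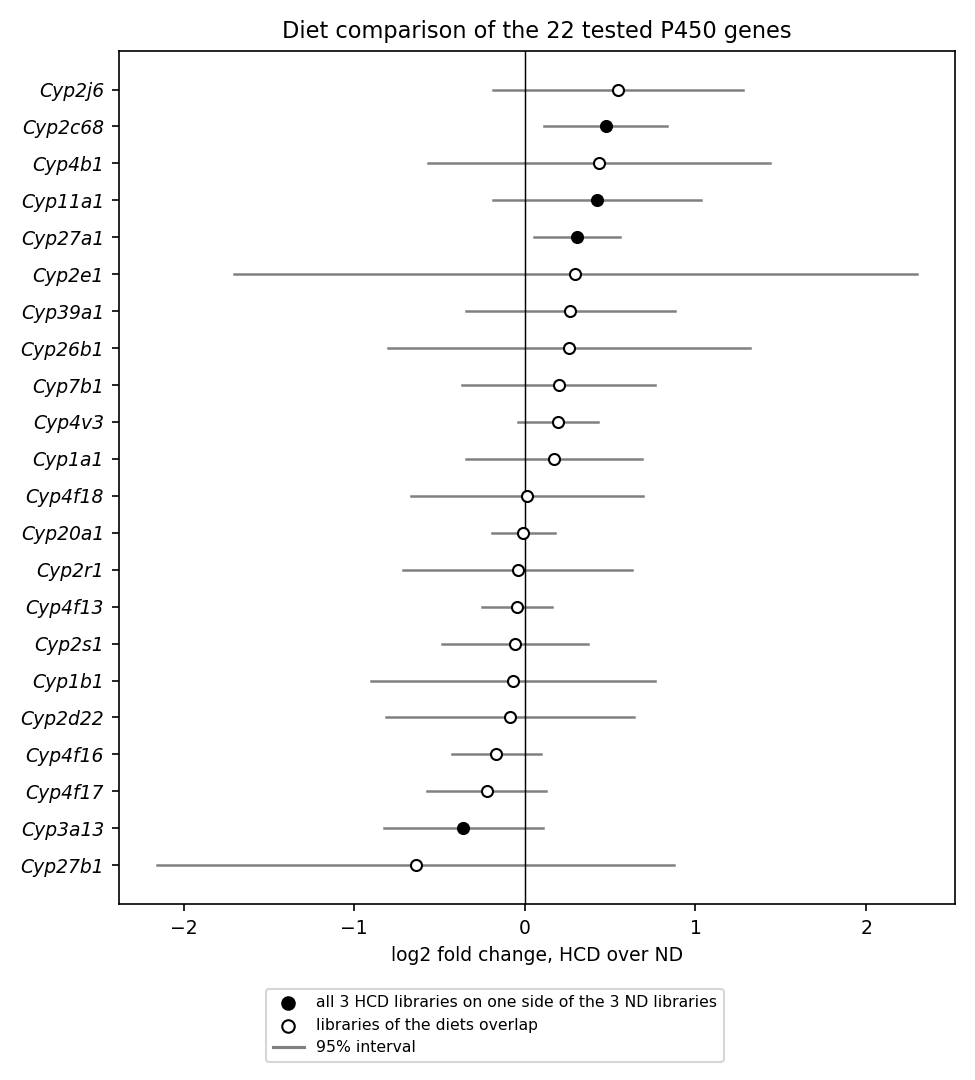
Log2 fold change of HCD over ND (x axis) of the 22 tested P450 genes with 95% intervals (grey lines) from edgeR, filled where all 3 HCD libraries lay on one side of the 3 ND libraries on scaled counts. The intervals of Cyp2c68 (0.11 to 0.83) and Cyp27a1 (0.05 to 0.56) lie above 0 before adjustment over all genes, and the other 20 include 0.

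The partners that supply electrons and haem were all present. All 13 listed genes had a mean of at least 1 FPKM and were tested, 12 with a positive and 1 with a negative log2 fold change, a median of 0.09 and 0 past the threshold. Por had 24.8 ± 0.631 FPKM in ND and 26.5 ± 2.87 FPKM in HCD tumours and Fdx1 17.8 ± 0.785 against 18.3 ± 2.43 FPKM (SD, n = 3 each). Cyb5b and Pgrmc1, which bind haem in membranes, had 69.9 ± 4.56 against 75.1 ± 5.38 FPKM and 51.0 ± 1.48 against 54.9 ± 5.85 FPKM. Cyb5a, the cytochrome that passes a second electron to some P450 enzymes, had 17.9, 18.6 and 16.3 FPKM in ND and 20.5, 23.1 and 21.8 FPKM in HCD tumours. All HCD values lay above all ND values, with a log2 fold change of 0.30 ± 0.08 SE and an unadjusted edgeR p of 0.00814, which adjusted to 0.839. The haem oxygenase gene Hmox1 varied most, from 15.3 to 49.8 FPKM in ND and from 15.0 to 87.6 FPKM in HCD tumours.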

How the data were processed

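RNA was measured in 3 ND and 3 HCD tumours. The authors deposited raw counts per gene and FPKM values for each sample in 1 table. The submitters' processing notes list the tools TopHat2 2.0.9, CASAVA 1.8, edgeR and HTSeq and the build mm10, without saying what each did. For 17690 of 17690 genes with counts in all libraries the deposited FPKM equalled the count over library total and a fixed length, within 0.1%. Columns of other samples numbered 0.

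Counts were tested with edgeR 4.0.16 (R 4.3.3; TMM factors, filterByExpr with minimum count 10 and minimum total 15, quasi-likelihood F-test in its legacy form, prior count 0.125, diet as the only term), adjusted by Benjamini-Hochberg over 15539 genes. Standard errors come from the fold change and F statistic. The test was checked on simulated counts with a fixed dispersion and larger fold changes than any tested member showed. That check does not show whether changes of the size seen here would be found. Libraries of 20351637 to 26228074 counts gave a floor of 0.114 to 0.147 CPM for 3 counts. Alternatives used DESeq2 1.42.0, limma 3.58.1 on counts and on log2(FPKM + 1), other filters and pseudocounts, a replicate block and each library left out. Positions are from GENCODE M21, which matched 94 of 94 members.

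Named were the members at 1 FPKM or more, those of the sterol, steroid, retinoid, vitamin D and AhR groups, those with an unadjusted p under 0.05 or separated diets, and of each partner list the 3 highest and any under that p. Others, such as liver genes at or near 0 counts, were named after their values were seen. The members and lists were chosen with earlier results of these data known. Another 23 names that start with Cyp and a digit, among them pseudogenes and Cyp51, fall outside the rule.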

Additional observations from a re-analysis of the deposited data

How the results depend on the processing

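No P450 gene that was given an adjusted p passed in any of the 16 alternative fits. Over all genes the DESeq2 Wald test called 6, and leaving out 1 library gave from 0 to 2 calls, the 2 without ND 2. The median log2 fold change of the tested members was 0.23 with no filter, where 64 members entered, and 0.00694 by limma-voom, and ran from 0.03 to 0.15 over the fits without 1 library. By limma-voom the sign of Cyp2e1 turned, which left 11 members positive and 11 negative. The median there lay between Cyp4f18 (0.0233) and Cyp20a1 (-0.00938). With the replicate block the median was 0.07 and 0 members and 0 genes were called, and Cyp3a13 joined Cyp27a1 and Cyp2c68 under an unadjusted p of 0.05. That set was Cyp2j6 without ND 1, Cyp27a1 without ND 2, Cyp4v3 without HCD 3, and Cyp1a1, Cyp27a1 and Cyp27b1 without HCD 1. With no filter Cyp4f39 joined the pair, and on log2(FPKM + 1) with no filter also Cyp21a1. Correlations of deviations from the diet mean were -0.33, 0.16 and 0.08 for same-numbered tumours. For tumours of different numbers they ran from -0.55 to 0.55, so these few values cannot tell whether the numbers mark pairs. The sign of some members turned. Cyp2e1 was -0.0481 by limma-voom, and Cyp20a1 was 0.00331 on log2(FPKM + 1), with and without the filter, and 0.00334 on log2(FPKM + 0.1). Over the fits without 1 library, Cyp1a1 ran from -0.0752 to 0.39, Cyp1b1 from -0.34 to 0.30, Cyp20a1 from -0.0491 to 0.0365, Cyp2d22 from -0.25 to 0.13, Cyp2e1 from -0.47 to 1.16, Cyp2r1 from -0.23 to 0.21, Cyp2s1 from -0.23 to 0.11 and Cyp4f18 from -0.20 to 0.19. The number of expressed members was 19 at 0.5 FPKM, 14 at 2 FPKM, 20 at 1 CPM and 16 to 17 without 1 library. Most members had too few counts to pass the filter and were not tested.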

Other observations

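A pair of P450 enzymes of prostanoid synthesis carry other symbols and so fall outside the family rule. Tbxas1, the thromboxane synthase gene, had 0.925, 1.84 and 1.52 FPKM in ND and 1.85, 2.86 and 1.59 FPKM in HCD tumours, with a log2 fold change of 0.54 ± 0.29 SE and an edgeR adjusted p of 0.839. It was lowest in ND 1 and highest in HCD 2, as were the marker sums of macrophages, T cells, mast cells and endothelial cells. The part of these cells in the level of Tbxas1 was not tested. Ptgis, the prostacyclin synthase gene, had 95 counts in all and a log2 fold change of -0.03 ± 0.75 SE. The cholesterol hydroxylase gene Ch25h, which is no P450, had 1.00 to 2.01 FPKM in ND and 1.71 to 2.39 FPKM in HCD tumours (log2 fold change 0.55 ± 0.32 SE, edgeR adjusted p = 0.839). Of the AhR targets outside the family, Tiparp had 14.6 ± 3.33 against 11.3 ± 1.47 FPKM and Ahrr 0.295 ± 0.0219 against 0.285 ± 0.112 FPKM (ND against HCD, SD, n = 3 each), while Cyp1a1 averaged 49.6 ± 5.16 against 56.2 ± 16.6 FPKM.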
